A study of Mus musculus with 36 samples.

Results

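The 8 genes described here encode matrix metalloproteases (Mmp2, Mmp9, Mmp14, Mmp15 and Mmp16) and their tissue inhibitors (Timp1, Timp2 and Timp3). They were picked by symbol through their Ensembl identifiers, not by their values, and all 8 were listed in each of the 3 deposited tables of normalized counts, among 25760, 26863 and 26472 genes. All 8 had a mean of at least 10 normalized counts in every table, so each was tested in every comparison. The 36 RNA-seq libraries came from primary mouse nephron progenitor cells (NPCs), which were taken from embryonic kidneys by depleting other cells with antibodies and were cultured with the GSK3β inhibitor CHIR99021 (CHIR), an agent that stabilizes β-catenin. Wild Type NPCs received no CHIR (0 µM), low CHIR (1.25 µM) or high CHIR (5 µM), with 3 libraries each. NPCs of the genotype B-catenin_c_c, homozygous for a conditional Ctnnb1 allele, were Cre-neg or Cre-pos (Cre mRNA) in low or high CHIR, with 2 libraries each. NPCs of the genotype Cas9-eGFP, which make Cas9 and GFP in all cells, received guide RNAs against Ctnnb1 or against GFP in low or high CHIR, with 2 libraries each. In a further experiment Cas9-eGFP NPCs received guides against Tcf7l1, Tcf7l2, Tcf7 and Lef1 (Tcf/Lef knockout) or against GFP, with 3 libraries each except the knockout in low CHIR, of which replicates 1 and 3 were analysed here. The genetically modified cells were transfected primary cultures sorted for a transfected red reporter, so a group is a mixed population of edited cells and not a clone. The labels do not say whether replicates were separate cultures or litters, so p-values measure the spread between these libraries.

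Matrix metalloproteases are zinc enzymes that cut collagens, laminins and other proteins outside the cell, and Timps block them by binding their active site. Mmp2 and Mmp9 are the secreted gelatinases, which cut denatured collagen and type IV collagen of basement membranes. Mmp14, Mmp15 and Mmp16 are membrane-type enzymes, and Mmp14 activates the proenzyme of Mmp2 at the cell surface in a complex that holds Timp2. In the developing kidney, mesenchymal cells are known to make Mmp2, and nephron progenitors give up a mesenchymal state for an epithelial one when canonical Wnt signaling induces them.

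In the GENCODE vM21 annotation of GRCm38, the gelatinase genes Mmp2 (ENSMUSG00000031740) and Mmp9 (ENSMUSG00000017737) lie on the plus strand at chr8:92827291-92853420 and chr2:164940780-164955850. The membrane-type genes Mmp14 (ENSMUSG00000000957, chr14:54431612-54445364), Mmp15 (ENSMUSG00000031790, chr8:95352268-95375080) and Mmp16 (ENSMUSG00000028226, chr4:17852893-18119145) also lie on the plus strand. Timp1 (ENSMUSG00000001131, chrX:20870166-20874735) lies inside Syn1 and shares 0 exonic bases with it. Timp2 (ENSMUSG00000017466) is on the minus strand at chr11:118301069-118355740. Timp3 (ENSMUSG00000020044, plus strand, chr10:86300372-86349506) shares 1733 exonic bases, 21.3% of its exonic length, with Syn3 on the opposite strand. The strand setting of the counting is not given in the sources used here, so reads of that stretch cannot be assigned to Timp3 or Syn3 with certainty. The count listed for Syn3 itself averaged 20.0 to 26.5 normalized counts in the 3 tables.

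The promoters of Timp1, Timp2 and Mmp14 are shown because Timp1 and Timp2 were called together in the Cre experiment in high CHIR, where Mmp14, the partner of Timp2 in the activation of Mmp2, was not. Each runs 5′ to 3′ on the gene's strand from 250 bases before the RefSeq transcript start to 50 bases after it, in GRCm38.p6. Capitals mark matches to GGGCGG, the core of the Sp1 motif, on either strand.
Timp1 (chrX:20869916-20870215, plus strand): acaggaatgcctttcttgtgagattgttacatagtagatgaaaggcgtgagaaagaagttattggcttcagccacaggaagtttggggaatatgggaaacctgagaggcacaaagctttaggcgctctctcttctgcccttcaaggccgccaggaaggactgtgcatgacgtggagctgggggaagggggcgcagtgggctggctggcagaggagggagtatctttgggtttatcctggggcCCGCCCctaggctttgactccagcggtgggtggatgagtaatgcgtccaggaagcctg
Timp2 (chr11:118355362-118355661, minus strand): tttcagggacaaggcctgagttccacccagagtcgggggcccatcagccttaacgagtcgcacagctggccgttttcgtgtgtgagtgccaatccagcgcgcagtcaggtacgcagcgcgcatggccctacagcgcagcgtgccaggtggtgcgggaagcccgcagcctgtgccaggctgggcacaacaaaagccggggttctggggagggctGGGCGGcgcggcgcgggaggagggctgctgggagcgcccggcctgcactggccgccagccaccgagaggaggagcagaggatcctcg
Mmp14 (chr14:54431348-54431647, plus strand): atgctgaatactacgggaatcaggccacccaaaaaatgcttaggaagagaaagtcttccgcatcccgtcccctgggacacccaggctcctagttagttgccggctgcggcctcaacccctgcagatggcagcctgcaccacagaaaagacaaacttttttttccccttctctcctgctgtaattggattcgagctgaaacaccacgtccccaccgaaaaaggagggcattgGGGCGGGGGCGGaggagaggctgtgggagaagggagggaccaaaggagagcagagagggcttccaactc
The Timp2 window was the richest in G and C of these, at 68.7% with 25 CG pairs, against 55% with 8 CG pairs for Timp1 and 56% with 10 for Mmp14. The median over the 32851 promoters of the RefSeq table was 52.7%. The GGGCGG letters were found in all 5 members with an entry (also Mmp15 and Timp3), and in 35.7% of all promoters in the table. The TCF/LEF letters, CTTTG followed by 2 letters that are each A or T, were searched on both strands and were in none of the 5 windows, while 16.9% of all promoters held them at least once. The AP-1 letters TGAGTCA were likewise in none of the 5, and in 5.2% of all promoters. A match or its absence describes these letters in this window alone. Mmp2, Mmp9 and Mmp16 had no entry.

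The libraries held 13651129 to 76071568 reads on genes in wild-type NPCs, 14537850 to 27838106 in the β-catenin experiments and 13089780 to 20152719 in the Tcf/Lef experiment. The deepest library was replicate 1 with no CHIR. Progenitor markers (6 genes, among them Six2 and Cited1) each averaged at least 10 normalized counts over the libraries of each table. Osr1 and Meox1 went down to 0 in wild-type NPCs. The summed normalized count of the 6 in wild-type NPCs was 8954 to 13851 in low CHIR and 301 to 384 in high CHIR. Stromal markers (10 genes, among them Pdgfra and Col1a1, all detected) summed to 19822 to 25041 in low CHIR and 4373 to 12220.4 in high CHIR in the same cells. Over all wild-type libraries Col1a1, Tcf21 and Col3a1 had the highest medians of the 10, at 7980, 7435 and 2071. Foxd1 and Pdgfra had medians of 26.6 and 108. In bulk RNA, fewer cells of a type and less RNA per cell cannot be told apart. A pair of libraries stood apart from their groups. In the Tcf/Lef experiment, replicate 1 of the GFP guide in high CHIR had a summed count of 3278 over 8 macrophage markers, all detected in that table, against 57.4 and 79.9 in the other libraries of its group and 23.5 to 67.4 in the remaining libraries of that table. In wild-type NPCs, replicate 3 in high CHIR had a summed count of 1317 over 8 ureteric markers (Wnt9b was not listed), against 5880 and 5412 in the other libraries in high CHIR and 477 to 792 in low CHIR. Gata3 ran from 37.1 to 4283 in wild-type libraries, Epcam from 92.0 to 873 and Krt8 from 78.8 to 731. Tfap2b reached at most 140, and Ret, Wnt11 and Calb1 at most 7.32, 49.5 and 54.9. Most of the 8 neutrophil markers were not listed in each table, and the rest summed to at most 8.23 in any library.

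The targeted genes were read first. Ctnnb1 differed by -1.16, SE 0.232, adjusted p = 0.252, between the Ctnnb1 guide and the GFP guide in low CHIR on the log2 scale, and fell in high CHIR (-0.89, SE 0.232, adjusted p = 0.0429). In Cre-pos against Cre-neg cells it differed by -0.33, SE 0.232, adjusted p = 0.657, in low CHIR and by 0.06, SE 0.232, adjusted p = 0.917, in high CHIR. The Cre excises only the floxed exons and the count covers the whole gene, so this count does not check the removal. Lef1, a known target of the pathway, fell in high CHIR in Cre-pos cells (-3.34, SE 0.454, adjusted p = 0.000384) and with the Ctnnb1 guide (-2.62, SE 0.454, adjusted p = 0.00435). With Tcf/Lef knockout in high CHIR, Tcf7 fell (-1.64, SE 0.314, adjusted p = 0.0175), and the other targeted genes did not pass the test, with log2 differences of -2.12 for Lef1, -0.35 for Tcf7l2 and 0.15 for Tcf7l1. Guides cut DNA, and a transcript need not become less abundant for the protein to be lost.

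Per kilobase of exon, Mmp2 was the most abundant of the 8 in every group. In wild-type NPCs in low CHIR it stood at 2919 ± 88.4 normalized counts per kb (SD, n = 3), ahead of Timp1 at 399.8 ± 15.9, Timp2 at 193 ± 49.5 and Mmp14 at 156 ± 15.2. Timp2 and Mmp14 lay within 1 SD of each other, so their order is not settled. Timp3 followed at 92.7 ± 49.1 and Mmp16 at 28.2 ± 4.32. At the low end, Mmp15 (13.8 ± 2.23) and Mmp9 (12.3 ± 9.59) did not differ beyond their spread. In high CHIR the level per kb of Mmp2 was 854 ± 223, and those of Mmp16 (14.0 ± 5.56) and Mmp15 (18.7 ± 11.5) lay within 1 SD of each other. The highest level per kb of Mmp9 in any group was 169 ± 72.5 (SD, n = 3), in the Tcf/Lef knockout in high CHIR.

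The comparison of high with low CHIR asks how the genes follow the step from the dose that keeps NPCs dividing to the dose that induces them. A member was called where limma's adjusted p over all genes tested was under 0.05 and the log2 difference was at least 0.5 either way. In wild-type NPCs 3 of 8 members were called, Mmp2 and Mmp16 lower and Mmp14 higher, where 10.4% of all genes tested were called. The same step was also measured in the control cells of the genetic experiments. It called 4 of 8 in Cre-neg cells (Mmp9 higher and Mmp16, Timp1 and Timp2 lower) against 8.05% of all genes. For the GFP guide of the β-catenin experiment 2 of 8 were called, Mmp9 higher and Mmp16 lower, against 7.51%. A block by replicate number, not taken as pairing there, called 5 of 8. With it, calls over all genes went from 1260 to 2562. For the GFP guide of the Tcf/Lef experiment 4 of 8 were called (Mmp9 higher and Mmp2, Mmp16 and Timp1 lower) against 14.9%. With the replicate number as a block, which pairs the libraries of that experiment, 5 of 8 were called, Timp2 in addition (-1.25 on the log2 scale, adjusted p = 0.00986), against 20.9%. Mmp16 was lower in all 4 comparisons. The median log2 difference of the members was 0.22 in wild-type NPCs, -0.45 in Cre-neg cells, -0.13 and -0.56 with the GFP guide, where the medians over all genes were 0.00937, -0.00243, -0.00472 and 0.00359. Removing CHIR altogether called 1 of 8 in wild-type NPCs, Timp2 higher, against 4.97% of all genes.

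**Figure D1:**
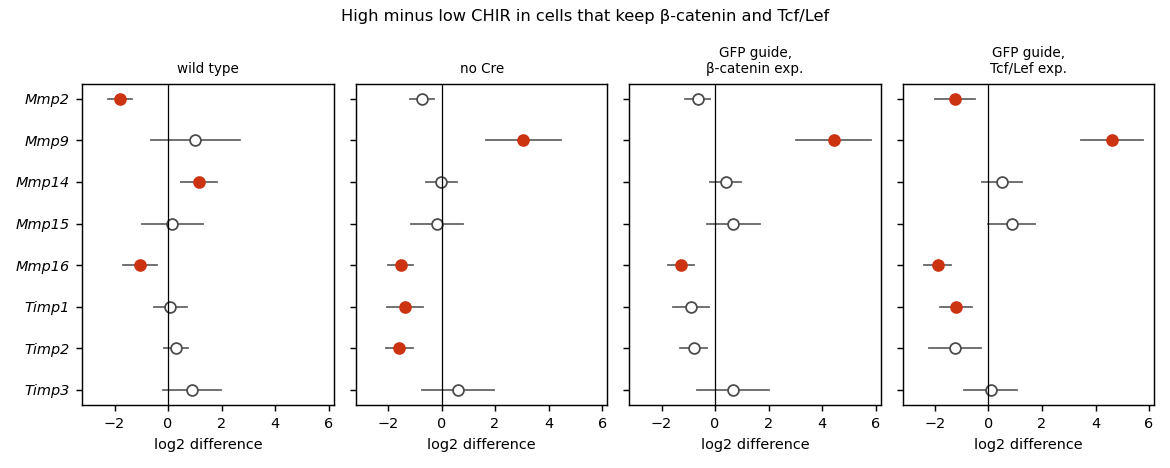
Log2 difference between high and low CHIR for each member (x axis, log2 normalized count + 1 scale, with 95% confidence intervals from limma) in 4 settings with the genes intact. Filled red points passed the test; Mmp16 is to the left of 0 in all 4 panels, and Mmp9 is to the right of 0 in all 4 and filled in the 3 panels of control cells from the genetic experiments.

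The removal comparisons ask which members depend on β-catenin or on its Tcf/Lef partners at a given dose. In high CHIR, Cre removal called 4 of 8 (Mmp2, Mmp16, Timp1 and Timp2, all higher) against 8.65% of all genes tested. Cas9 removal called 2 of 8, Mmp16 and Timp2, both higher, against 5.09%. A replicate block, not taken as pairing in that experiment, called Mmp2 and Timp1 in addition. With it, calls over all genes went from 854 to 2133. The Tcf/Lef knockout called 1 of 8, Mmp16, which was higher, against 2.54%. With the replicate block the Tcf/Lef knockout called 5 of 8 against 7.44%, all higher, namely Mmp16 (adjusted p = 0.00377), Timp3 (0.00317), Timp1 (0.0123), Mmp9 (0.0399) and Mmp2 (0.0416). In low CHIR, Cas9 removal called 1 of 8, Mmp9, higher, against 0.0536%. Cre removal in low CHIR called 0 of 8 by limma, against 0.328% of all genes by limma. There edgeR called 0 of 8 and DESeq2 1, and 3 had an unadjusted p under 0.05. For those counts no share of all genes is given here. In low CHIR the Tcf/Lef knockout called 0 of 8 by limma, edgeR and DESeq2, with 0 at an unadjusted p under 0.05. The share of all genes called by limma was 0.0063% (0.101% with the block). Of 8 endothelial markers, 2 averaged at least 10 counts over the libraries of the β-catenin experiments and 5 over those of the Tcf/Lef experiment. Their summed count was also higher, without overlap, with each removal in high CHIR. Their sum was 248 to 285 in Cre-neg and 678 to 772 in Cre-pos cells, 382 to 405 with the GFP guide and 959.5 to 975 with the Ctnnb1 guide, and 370.04 to 470.3 against 499 to 830.2 in the Tcf/Lef experiment. Plvap and Egfl7 made up most of these counts in the β-catenin experiments, where the defining markers Cdh5 and Tie1 reached at most 5.41 and 6.44. In the Tcf/Lef experiment Plvap reached 2308 and Egfl7 330, and Tek and Flt1 at most 172 and 42.9. Plvap was the endothelial marker that limma called with each removal in high CHIR (2.51, 2.48 and 2.14). With the GFP guide of the Tcf/Lef experiment, high CHIR lowered Plvap (-3.74) and raised Tek (5.95) and Flt1 (1.87). The part of endothelial cells in the members' differences was not tested. The removal comparisons in high CHIR and the CHIR comparisons of the same control cells share the control libraries in high CHIR, so their opposite signs are not separate evidence.

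**Figure D2:**
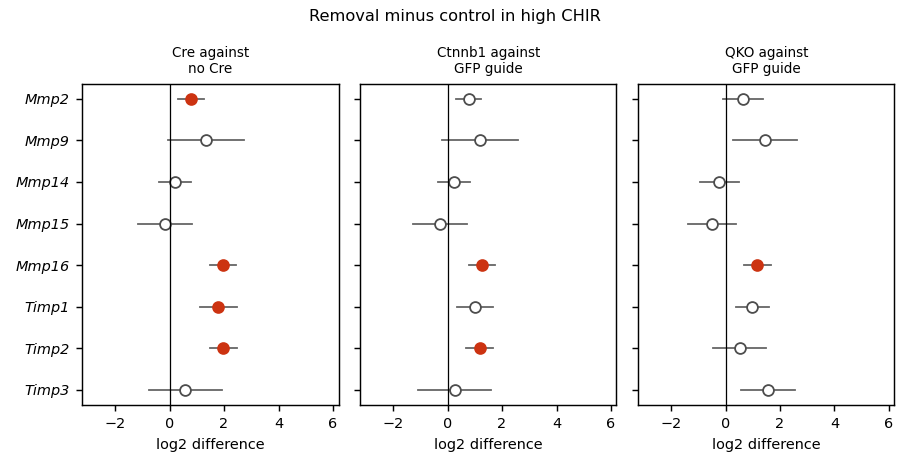
Log2 difference between cells with a gene removed and their control in high CHIR (x axis, log2 normalized count + 1 scale, with 95% confidence intervals from limma) for Cre removal, Cas9 removal and the Tcf/Lef knockout. Filled red points passed the test; Mmp16 is filled in all 3 panels, and Timp2 in both β-catenin panels.

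Mmp2, the gelatinase that Mmp14 activates, was lower in high CHIR. Its normalized counts in wild-type NPCs were 9989, 9495 and 10032 in low CHIR and 3747, 2480.4 and 2407 in high CHIR. Every library in high CHIR lay below every library in low CHIR, and Mmp2 fell by 1.80 on the log2 scale (3.49-fold, SE 0.204, adjusted p = 0.000427). With no CHIR the counts were 14133, 8735 and 11384, a range that overlapped that of low CHIR (log2 difference 0.19, adjusted p = 0.644).

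Control cells of the genetic experiments also had less Mmp2 in high CHIR, a difference called in 1 of 3 comparisons. In Cre-neg cells it stood at 5103 and 6447 in low CHIR and 3408 and 3518 in high CHIR. The groups did not overlap, and the log2 difference of -0.73 missed the threshold (adjusted p = 0.0540). With the GFP guide of the β-catenin experiment the counts were 8323 and 6678 in low and 5099 and 4409.8 in high CHIR, again without overlap and without a call (log2 difference -0.65, adjusted p = 0.0881). In the Tcf/Lef experiment the GFP guide gave 9322, 5139.9 and 3406 in low and 3501, 1783 and 1919 in high CHIR. Here the lowest library in low CHIR lay under the highest in high CHIR, and Mmp2 fell by 1.26 on the log2 scale (SE 0.341, adjusted p = 0.0273). That call was lost without replicate 1 or 2 in low CHIR or replicate 2 or 3 in high CHIR, and in a fit of these groups alone, with adjusted p up to 0.112.

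Where β-catenin was removed in high CHIR, Mmp2 was higher. Cre-pos cells had 5099.9 and 6964 normalized counts in high CHIR, above both Cre-neg libraries, and Mmp2 rose by 0.78 (1.72-fold, SE 0.214, adjusted p = 0.0357). The call was lost without either Cre-neg library, without Cre-pos replicate 2 and in a fit of these groups alone (adjusted p = 0.133). With the Ctnnb1 guide the counts were 7762 and 8454, above both GFP guide libraries, and the log2 difference of 0.77 just missed the threshold (adjusted p = 0.0550). The Tcf/Lef knockout had 4307, 3409 and 3141 in high CHIR, which overlapped its control. The log2 difference of 0.65 missed the threshold without the replicate block (adjusted p = 0.433), and Mmp2 was called with it. In low CHIR the counts were 5921 and 7159 in Cre-pos cells, 9435 and 6721 with the Ctnnb1 guide and 7881 and 5258 in the Tcf/Lef knockout, all overlapping their controls. In the same control cells the stromal marker sum was 10066 to 15244 in low CHIR for Cre-neg, 14595 to 27812 for the GFP guide of the β-catenin experiment and 5871 to 12071 for that of the Tcf/Lef experiment, where high CHIR gave 1856 to 4849. In high CHIR the sum was 6695 to 7881 in Cre-neg and 8832 to 14098 in Cre-pos cells, 7226 to 18458 with the GFP guide and 14916 to 22894 with the Ctnnb1 guide. The Tcf/Lef knockout had a stromal sum of 2589 to 9865 in high CHIR, which overlapped its control. The part of stromal cells in these differences was not tested.

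**Figure D3:**
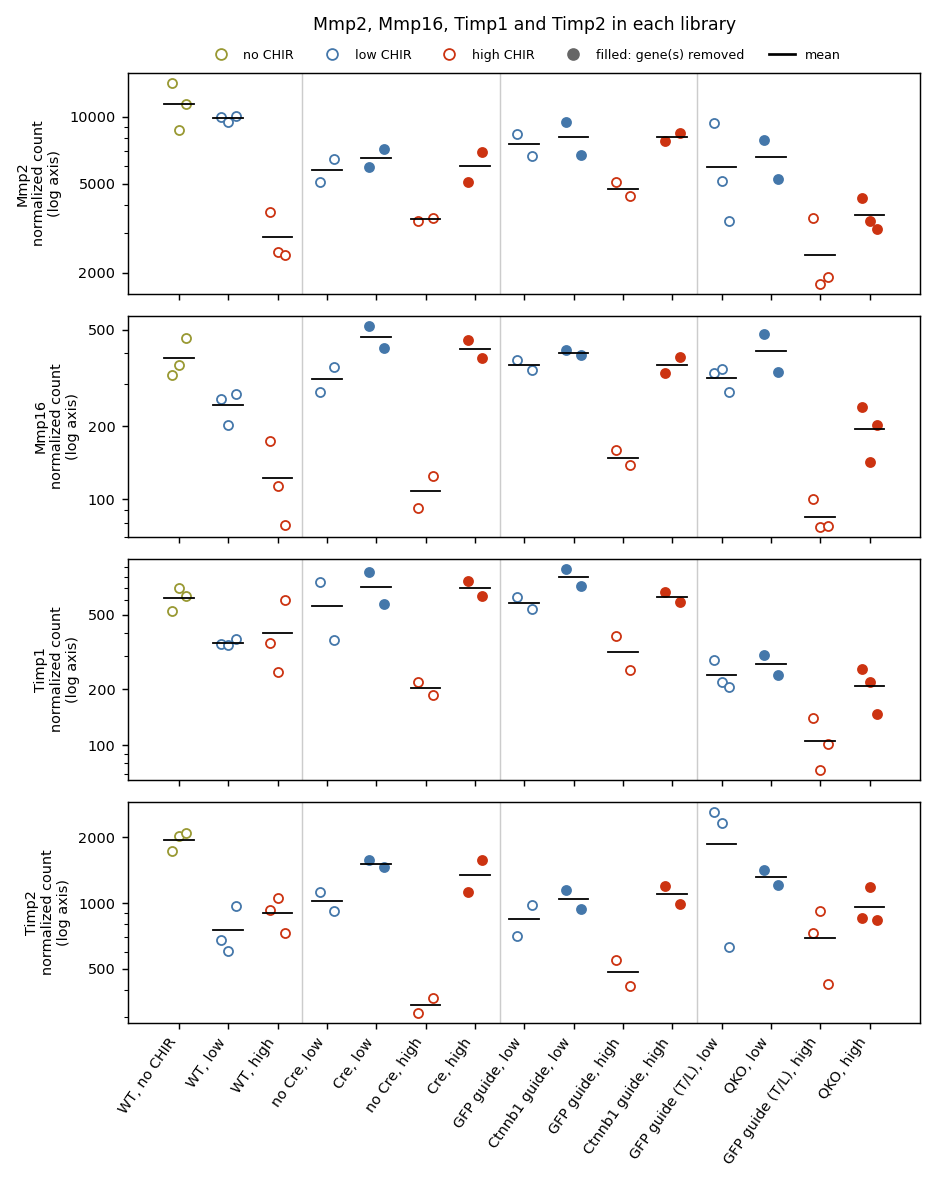
Normalized counts (y axis, log scale) of Mmp2, Mmp16, Timp1 and Timp2 in all 36 libraries by group, with a bar at each group's mean. Open points have the genes intact and filled points have a gene or genes removed, in no (olive), low (blue) or high (red) CHIR; Mmp16 in high CHIR lies between 76.9 and 174 where the genes are intact and between 142 and 453 where they are removed.

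Mmp9, the other gelatinase, gave the largest called differences of the 8, and its counts ran from 0.994 to 837. In wild-type NPCs its normalized counts were 20.1, 33.7 and 23.5 with no CHIR, 80.2, 37.0 and 13.2 in low CHIR and 197, 62.8 and 27.1 in high CHIR. The dose groups overlapped, and the high to low log2 difference was 1.01 (SE 0.748, adjusted p = 0.459, 95% CI -0.65 to 2.67). In Cre-neg cells the counts were 27.8 and 14.7 in low and 137 and 224 in high CHIR. These groups did not overlap, and Mmp9 rose by 3.06 on the log2 scale (8.31-fold, SE 0.649, adjusted p = 0.00934), a call lost without replicate 2 of either dose (adjusted p up to 0.0781).

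With the GFP guide of the β-catenin experiment, low CHIR gave 1 and 10 reads of Mmp9, which are 0.994 and 10.8 normalized counts, and high CHIR gave 92.9 and 116. Mmp9 rose by 4.43 (SE 0.649, adjusted p = 0.000765), and without replicate 1 in low CHIR, the library with 1 read, by 3.15 (adjusted p = 0.00386). In the Tcf/Lef experiment Mmp9 with the GFP guide stood at 11.01, 7.90 and 4.32 in low CHIR and 506, 129 and 127 in high CHIR. No library of one dose reached the other dose, and Mmp9 rose by 4.62 (24.6-fold, SE 0.537, adjusted p = 0.000147). The highest of these counts, 506, came from the library with 3278 counts of macrophage markers (Lyz2 alone at 2474). Without that library Mmp9 still rose, by 3.96 (adjusted p = 0.000220).

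Mmp9 was also higher in cells with β-catenin removed in low CHIR. With the Ctnnb1 guide its counts were 85.9 and 78.1, above the 2 GFP guide libraries given above, and it rose by 4.09 on the log2 scale (SE 0.649, adjusted p = 0.0495). This call rested on an adjusted p close to the threshold and was lost with a pseudocount of 0.5, with edgeR, in a fit of these groups alone, and without GFP guide replicate 1 (2.81 on the log2 scale, adjusted p = 0.559) or either Ctnnb1 guide library. In Cre-pos cells the counts in low CHIR were 168 and 70.8, above both Cre-neg libraries, but the difference of 2.37 did not pass limma's test (SE 0.649, adjusted p = 0.171). DESeq2 called 1 of the members in that comparison. The paper on these data, which used DESeq2, lists Mmp9 among the genes raised by both routes of removal in low CHIR.

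In high CHIR, Mmp9 stood at 468 and 414 in Cre-pos cells and 236 and 237 with the Ctnnb1 guide. Both pairs lay above their controls, with log2 differences of 1.32 (adjusted p = 0.271) and 1.18 (adjusted p = 0.345) that missed the threshold. In the Tcf/Lef knockout the counts were 17.4 and 11.7 in low CHIR and 626, 837 and 327 in high CHIR. In high CHIR the lowest knockout library lay under the control library with macrophage markers. The log2 difference was 1.45 without the replicate block (SE 0.537, adjusted p = 0.226), and Mmp9 was called with the block. Without that control library Mmp9 rose by 2.11 (adjusted p = 0.0379), and the comparison called 3 of 8 members, the others being Mmp16 and Timp3. That library held the highest control counts of Mmp9 (506) and Timp3 (819), so leaving it out widens both differences in any case. No share of all genes is given for that omission alone. Without control replicate 2 or knockout replicate 1 or 3 the comparison called no member. Calls over all genes ran from 157 to 480 over the omissions of 1 library, against 404 with all libraries. In the libraries of the β-catenin experiments the macrophage markers Adgre1, Cx3cr1, C1qa and C1qb were not listed, and the other 4 summed to 21.1 to 94.0. In wild-type NPCs the macrophage sum was 1008 to 1394 with no CHIR, 786 to 953 in low and 264 to 421 in high CHIR. Lyz2 alone ran from 176 to 1152 in these libraries, Adgre1 from 26.9 to 136 and Cd68 from 41.5 to 91.1. Ptprc, Csf1r, Cx3cr1, C1qa and C1qb each reached at most 34.4. The part of macrophages in these counts was not tested.

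**Figure D4:**
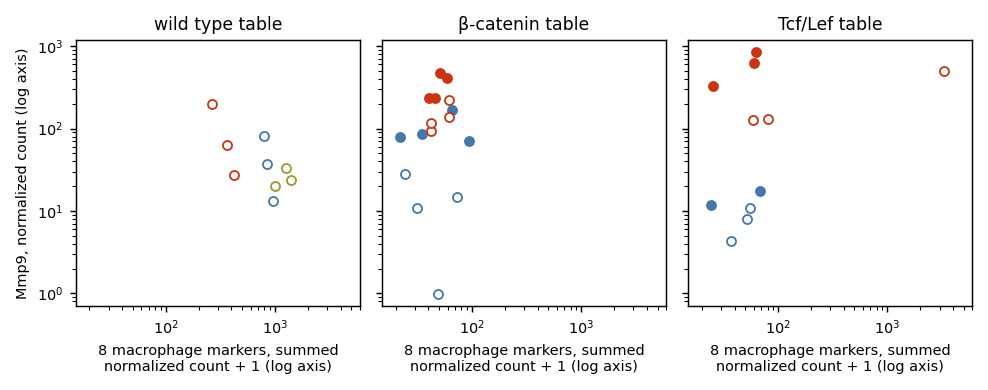
Mmp9 (y axis, normalized counts, log scale) against the summed normalized count of 8 macrophage markers plus 1 (x axis, log scale) for each library, in 3 panels by table. In the Tcf/Lef panel the GFP guide library in high CHIR with a marker sum of 3278 stands alone at the right, while the 3 knockout libraries in high CHIR have Mmp9 counts of 327 to 837 at marker sums of 24.1 to 62.3.

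Mmp14, the membrane-type enzyme that activates proMmp2, was called once. Its normalized counts in wild-type NPCs were 1292, 1183 and 1147 with no CHIR, 916, 1028 and 849 in low CHIR and 1732, 1362 and 3694 in high CHIR. Replicate 3 in high CHIR, which also stood apart in its ureteric markers, was the highest of the 9 wild-type libraries, and the high and low groups did not overlap. Mmp14 rose by 1.15 from low to high CHIR (2.22-fold, SE 0.297, adjusted p = 0.0341), and by 0.73 without that replicate (adjusted p = 0.0102). The call was lost in a fit of these groups alone and without any 1 of the libraries in low CHIR (adjusted p up to 0.126). With no CHIR every library was above low CHIR, without passing the test (log2 difference 0.38, adjusted p = 0.50).

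No comparison of the genetic experiments called Mmp14. Its lowest and highest counts were 932 and 1846 in the 16 libraries of the β-catenin experiments and 876 and 2866 in the 11 of the Tcf/Lef experiment. The high to low log2 difference was -0.00444 in Cre-neg cells (95% CI -0.59 to 0.58), 0.39 (-0.19 to 0.98) and 0.51 (-0.22 to 1.24) with the GFP guides. Removal of β-catenin or of Tcf/Lef factors gave log2 differences from -0.23 to 0.50 over 6 comparisons, with no call.

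Mmp15, a further membrane-type enzyme, was low throughout and never called. In wild-type NPCs its counts were 88.0, 71.2 and 64.7 in low CHIR and 149, 123 and 30.8 in high CHIR. The same replicate 3 in high CHIR was here the lowest of its group, and the log2 difference was 0.16 (95% CI -0.98 to 1.30). In GFP guide cells of the Tcf/Lef experiment Mmp15 stood at 39.1, 50.3 and 35.4 in low and 77.5, 102 and 55.3 in high CHIR, without overlap (log2 difference 0.87, adjusted p = 0.177). In low CHIR the Ctnnb1 guide libraries had 48.5 and 48.7, above the 23.8 and 24.9 of the GFP guide, at an adjusted p of 1.00 for a log2 difference of 0.97. Over all libraries Mmp15 ranged from 15.1 to 149 normalized counts.

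Mmp16, a membrane-type enzyme made in mesenchymal and neural tissues, was called in all 4 comparisons of high with low CHIR and in all 3 removals in high CHIR. In wild-type NPCs its normalized counts were 326, 357 and 464 with no CHIR, 259, 202 and 273 in low CHIR and 174, 113 and 78.5 in high CHIR. Neither step showed any overlap. Mmp16 fell by 1.06 from low to high CHIR (SE 0.288, adjusted p = 0.0412), and its difference of 0.64 between no and low CHIR did not pass the test (adjusted p = 0.226). The call for high CHIR was lost in 8 of 14 alternatives, among them edgeR (adjusted p = 0.0541) and the omission of any compared library other than replicate 1 in high CHIR.

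Control cells of the genetic experiments showed the same fall in high CHIR. Cre-neg cells had 277 and 352 in low and 92.1 and 124 in high CHIR, and Mmp16 fell by 1.53 (2.89-fold, SE 0.224, adjusted p = 0.000660). With the GFP guide of the β-catenin experiment it stood at 376 and 341 in low and 159 and 138 in high CHIR, and fell by 1.27 (SE 0.224, adjusted p = 0.00309). With that of the Tcf/Lef experiment it stood at 331, 344 and 278 in low and 99.7, 76.9 and 77.6 in high CHIR, and fell by 1.90 (3.73-fold, SE 0.231, adjusted p = 0.000204). In none of the 3 did the doses overlap, and the calls with both GFP guides held under every alternative run. That in Cre-neg cells was lost in a fit of its groups alone (adjusted p = 0.0527).

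In high CHIR, Mmp16 was higher with each of the 3 removals. Cre-pos cells had 453 and 381 normalized counts, above the 277 and 352 of Cre-neg cells in low CHIR. Against Cre-neg cells in high CHIR, Mmp16 rose by 1.95 (3.86-fold, SE 0.224, adjusted p = 9.09e-05). The Ctnnb1 guide gave 332 and 386 and a rise of 1.27 (SE 0.224, adjusted p = 0.00488), lost without replicate 2 of either guide (adjusted p up to 0.0820). The Tcf/Lef knockout gave 239.9, 142 and 202 and a rise of 1.17 (SE 0.231, adjusted p = 0.0216), lost without control replicate 2 or knockout replicate 1 or 3. No removed library overlapped its control in high CHIR. The knockout libraries remained under the lowest control count in low CHIR, 278. In low CHIR the counts were 519.5 and 419.7 in Cre-pos cells, 412 and 394 with the Ctnnb1 guide and 482 and 335 in the Tcf/Lef knockout, with log2 differences of 0.58, 0.17 and 0.34 and no call. Progenitor markers moved with Mmp16 in high CHIR. Their sum was 2566 to 4178 in Cre-neg and 10636 to 12432 in Cre-pos cells, 3245 to 3848 with the GFP guide and 10141 to 10791 with the Ctnnb1 guide, and 1019 to 2317 against 3636 to 5120.3 in the Tcf/Lef experiment. The part of the progenitor share in the values of Mmp16 was not tested.

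Timp1, a secreted inhibitor of most soluble metalloproteases, was lower in high CHIR in control cells of the genetic experiments, with a call in 2 of 3 comparisons. In wild-type NPCs its counts were 524, 695 and 630.02 with no CHIR, 348, 346 and 371 in low CHIR and 354, 246 and 604 in high CHIR. Replicate 3 in high CHIR was again the highest of its group, and the high to low log2 difference was 0.08 (95% CI -0.54 to 0.70). With no CHIR all 3 libraries lay above low CHIR, and the difference of 0.79 missed the threshold (adjusted p = 0.134). Cre-neg cells had 749.6 and 366 in low and 217 and 187 in high CHIR. Timp1 fell there by 1.38 (SE 0.313, adjusted p = 0.0144), a call lost without replicate 1 in low CHIR or either replicate in high CHIR, and in a fit of these groups alone. With the GFP guide of the Tcf/Lef experiment it stood at 287, 217 and 206 in low and 139, 73.8 and 101 in high CHIR, without overlap, and fell 2.30-fold (log2 SE 0.275, adjusted p = 0.0113), a call lost without replicate 1 in low or replicate 2 in high CHIR. The GFP guide of the β-catenin experiment gave 622 and 536 in low and 383 and 253 in high CHIR, also without overlap, with a difference of -0.89 that was not called (adjusted p = 0.114).

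In Cre-pos cells the counts of Timp1 in high and low CHIR overlapped. They stood at 763 and 634 normalized counts in high CHIR and 849 and 570.3 in low CHIR. Timp1 rose by 1.78 against Cre-neg cells in high CHIR (3.44-fold, SE 0.313, adjusted p = 0.00253), a call that held under every alternative run. The Ctnnb1 guide gave 664 and 587 in high CHIR, below its 883 and 711 in low CHIR and above the GFP guide in high CHIR, with a difference to that guide of 1.00 that missed the threshold (adjusted p = 0.0872). The Tcf/Lef knockout had 257, 217 and 148 in high CHIR. Each of these lay above every control library, and the difference of 0.99 missed the threshold without the replicate block (adjusted p = 0.0911) and was called with it and by DESeq2 (adjusted p = 0.0218). In low CHIR none of the 3 removals gave a call (log2 differences of 0.41, 0.46 and 0.20).

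Timp2, which takes part in the activation of Mmp2 as well as inhibiting it, was the member called with no CHIR. Its normalized counts in wild-type NPCs were 1729, 2030.1 and 2087 with no CHIR, 678, 604 and 969 in low CHIR and 925, 1057 and 728 in high CHIR. Every library with no CHIR lay above every other wild-type library, and Timp2 rose by 1.40 against low CHIR (2.64-fold, SE 0.202, adjusted p = 0.00708), under every alternative run. The progenitor markers had a sum of 24019 to 29062 with no CHIR, also above the 8954 to 13851 in low CHIR, and their part in the values of Timp2 was not tested. Between high and low CHIR the libraries overlapped (log2 difference 0.28, 95% CI -0.17 to 0.73). Cre-neg cells differed in this, with 1120.5 and 924 in low and 315 and 367 in high CHIR. There Timp2 fell by 1.58 (2.99-fold, SE 0.229, adjusted p = 0.000626). The GFP guides gave 706 and 984 in low and 552 and 416 in high CHIR in the β-catenin experiment, and 2622, 2318 and 633 in low against 729, 918 and 427 in high CHIR in the Tcf/Lef experiment. Their differences of -0.80 and -1.25 missed the threshold without the replicate block (adjusted p = 0.0514 and 0.0860). The fall in the Tcf/Lef experiment was called with the block. The wild-type and genetic experiments lie in tables normalized separately, so the difference between their CHIR responses was not tested.

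β-Catenin removal in high CHIR raised Timp2 by both routes. Cre-pos cells had 1126 and 1575 normalized counts, with a rise of 1.97 (3.91-fold, SE 0.229, adjusted p = 0.000102) that held under every alternative run. The Ctnnb1 guide gave 1204 and 988 and a rise of 1.18 (2.27-fold, SE 0.229, adjusted p = 0.00905), lost without Ctnnb1 guide replicate 1 or GFP guide replicate 2 (adjusted p up to 0.136). Neither pair overlapped its control. Knockout of Tcf/Lef factors gave 855, 1185 and 833, which overlapped its control (log2 difference 0.52, adjusted p = 0.648, 95% CI -0.46 to 1.50). In low CHIR the Cre-pos libraries had 1578 and 1459, both above Cre-neg, at an adjusted p of 0.381 for a difference of 0.58.

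Timp3, the inhibitor that binds to the extracellular matrix, was never called by limma without the replicate block and with all libraries. In wild-type NPCs its counts were 1471, 482 and 804 with no CHIR, 650.4, 1196 and 418 in low CHIR and 1953, 736 and 1461 in high CHIR, with overlap (high to low log2 difference 0.90, adjusted p = 0.301). Cre-pos cells had 1742 and 1167 in high CHIR, above the 1125 and 819 of Cre-neg cells, and 1489 and 1017 in low CHIR, above 525 and 742. Neither difference passed the test (0.57 and 0.98, adjusted p = 0.662 and 0.621). In the Cas9 β-catenin experiment, replicate 1 was above replicate 2 in all 4 groups, for example 4103 and 1052 with the GFP guide and 3391 and 1832 with the Ctnnb1 guide in high CHIR. In these groups the spread between replicates exceeded the difference between the guides in high CHIR. In the Tcf/Lef knockout in high CHIR the counts were 1566, 1704 and 902, all above the 819, 335 and 339 of the control. The log2 difference of 1.56 (SE 0.452, adjusted p = 0.108) was called with the replicate block, by DESeq2 (adjusted p = 0.0188), and also by limma without the control library with macrophage markers (log2 difference 1.99, adjusted p = 0.0467). That library held the highest control count, 819, so leaving it out widens the difference in any case.

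**Figure D5:**
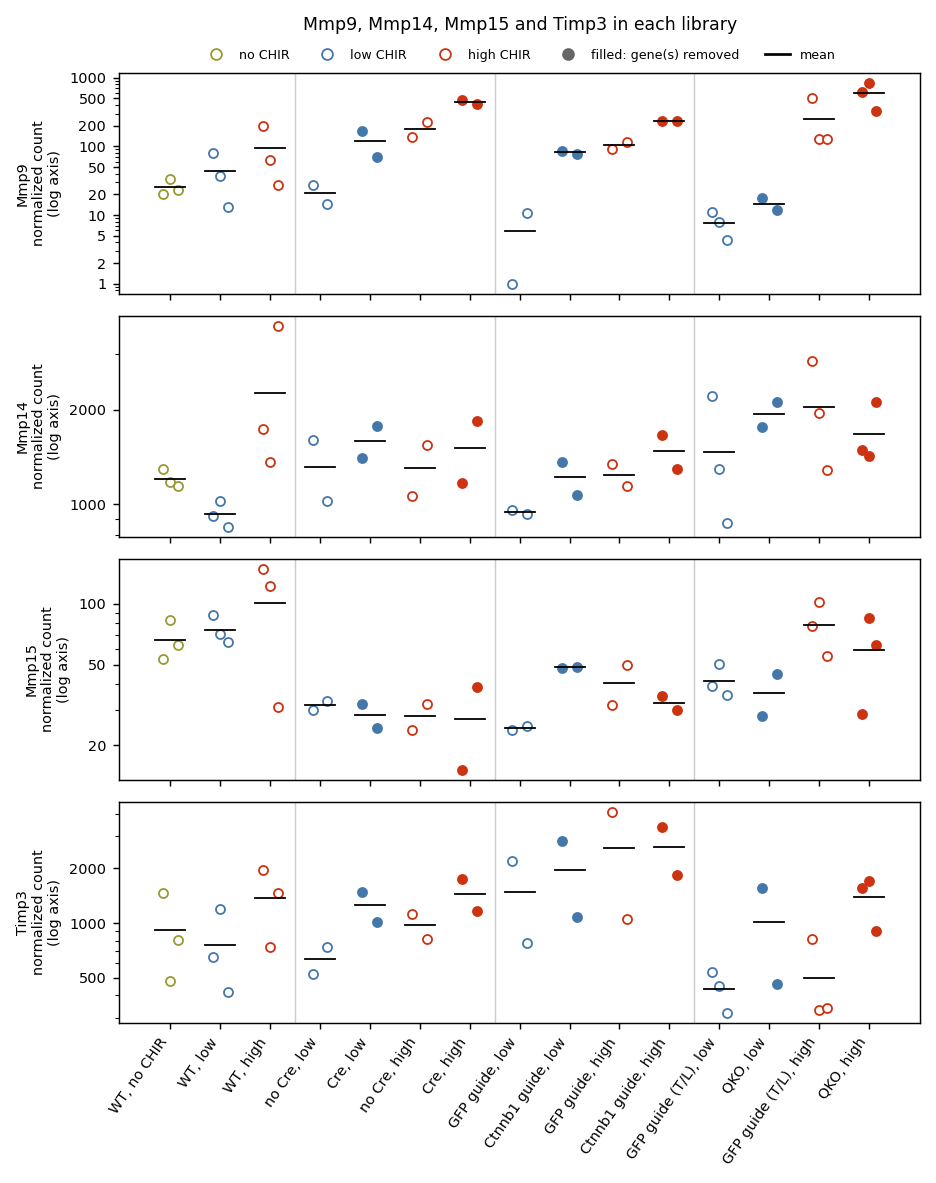
Normalized counts (y axis, log scale) of Mmp9, Mmp14, Mmp15 and Timp3 in all 36 libraries by group, with a bar at each group's mean. Open points have the genes intact and filled points have a gene or genes removed, in no (olive), low (blue) or high (red) CHIR; Mmp9 in the GFP guide group in low CHIR reaches down to 0.994, and Mmp14 reaches 3694 in a wild-type library in high CHIR.

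Whether the CHIR response itself differed after removal was tested as an interaction of dose and genotype. Shares of all genes in this paragraph are of limma calls. None is given for counts by edgeR, by DESeq2 or at an unadjusted p, so those counts cannot be set against a background. By Cre, 0 of 8 members were called by limma, against 0.995% of all genes. There edgeR called 0 and DESeq2 2, and 3 had an unadjusted p under 0.05. A replicate block, not taken as pairing here, called Timp1, Mmp16 and Timp2. With it 526 genes were called over all, against 167 without it. The largest interactions without the block were 1.39 for Timp2 (adjusted p = 0.0689), 1.37 for Mmp16 (0.0683) and 1.37 for Timp1 (0.259), all toward a weaker loss in high CHIR. By Ctnnb1 guide, 0 of 8 were called by limma, against 0.518%. There edgeR called 0 and DESeq2 1, and 4 interactions had an unadjusted p under 0.05. Mmp9 had the largest of these, -2.91 (adjusted p = 0.385, 95% CI -4.89 to -0.94). Without the GFP guide library with 1 read it was -1.63 (adjusted p = 0.922), and without the other GFP guide library in low CHIR -4.20, which was called (adjusted p = 0.0300). By Tcf/Lef knockout, 0 of 8 were called by limma, against 0.126% (0.857% with the block). There edgeR and DESeq2 called 0, and 1 had an unadjusted p under 0.05.

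Both routes of β-catenin removal were compared directly as well. In low CHIR 0 of 8 members differed by limma, edgeR and DESeq2, with 0 at an unadjusted p under 0.05 and 0% of all genes called. In high CHIR it was again 0 of 8 by all 3 tools, with 1 at an unadjusted p under 0.05 and 0% of all genes called by limma. The widest gaps in high CHIR were those of Timp1 (0.78, 95% CI -0.17 to 1.73) and Timp2 (0.78, 95% CI 0.08 to 1.48), both higher by Cre, and these intervals leave room for the routes to differ.

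Other genes of the same proteolytic system were taken from 4 lists. Of 18 other metalloproteases, 6 passed the filter on low values in each table. High CHIR in wild-type NPCs raised 2 of them, Mmp17 (1.75 on the log2 scale) and Mmp11 (0.89), and lowered 0. Mmp23 rose with no CHIR (2.23, SE 0.402, adjusted p = 0.0160) and with Cre removal in high CHIR (1.28), and fell with high CHIR in Cre-neg cells (-1.15) and in the GFP guide of the Tcf/Lef experiment (-1.38). Cas9 removal in high CHIR called 0 of the 6 by limma and edgeR and 1 by DESeq2, and the Tcf/Lef knockout 0 by all 3 tools, each with 1 at an unadjusted p under 0.05.

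Of 20 regulators of metalloproteases (proteases, convertases, receptors and inhibitors), 17, 18 and 15 were tested in the 3 tables. In wild-type NPCs high CHIR raised 3 and lowered 1, among them Pcsk6, a proprotein convertase (1.97, SE 0.366, adjusted p = 0.00681), with Spock2 lower (-1.37). Plaur, the urokinase receptor, rose in high CHIR with both GFP guides (1.69 and 1.79), while Cd44, a hyaluronan receptor that can dock Mmp9 on the cell surface, fell with both (-1.17 and -2.05) and in Cre-neg cells (-1.38). Cre removal in high CHIR raised 4 and lowered 0 of 18, with Cd44 (2.05, SE 0.234, adjusted p = 8.79e-05) and Plaur (1.56) ahead. Cas9 removal raised 3 and lowered 0, with Plat, the tissue plasminogen activator (1.25), and Lrp1, an endocytic receptor for proteases (1.25). Tcf/Lef knockout raised 1 of 15, Serpine2 (1.28).

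Of 36 genes of the Adam, Adamts and astacin families, which are related metalloproteases, 29, 25 and 24 were tested. High CHIR raised 2 and lowered 2 in wild-type NPCs, with Adamts18 (4.87) and Adamts9 (2.71, SE 0.226, adjusted p = 7.99e-05) up and Adam23 down (-1.88). Cre removal in high CHIR raised 9 and lowered 2 of 25, and Cas9 removal raised 7 and lowered 2, with Adam12 up in both (2.79 and 2.94) and Adamts9 down in both (-1.57 and -1.41). Knockout of Tcf/Lef factors raised 1 of 24, Adamts15 (1.57), which Cas9 removal also raised (2.63). Its interaction with dose was called by Cre (2.98, SE 0.472, adjusted p = 0.00700) and by Ctnnb1 guide (3.16, SE 0.472, adjusted p = 0.00702).

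Of 25 matrix proteins that metalloproteases cut, 24, 24 and 25 were tested. High CHIR raised 2 and lowered 4 in wild-type NPCs. Col18a1, a basement membrane collagen, rose (2.98), and Nid2, a nidogen that links laminin to collagen IV, fell (-4.10, SE 0.293, adjusted p = 2.79e-05), as did the glycoprotein Tnc (-1.73). Tnc was higher with each removal in high CHIR, by 4.01, SE 0.337, adjusted p = 6.43e-06, with Cre, by 2.71 with the Ctnnb1 guide and by 1.78 in the Tcf/Lef knockout. Over the list, Cre removal raised 5 and lowered 1 of 24, Cas9 removal raised 5 and lowered 0, and the Tcf/Lef knockout raised 3 and lowered 0 of 25. The background shares are those given above for the same comparisons, and in low CHIR the 3 removals called 0 genes of the 4 lists by limma and by edgeR. DESeq2 called at most 1 per list and removal there, and 0 to 8 genes had an unadjusted p under 0.05. No share of all genes is given for those counts.

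Likeness to the members was measured as Pearson's r over the 36 libraries, after centring each gene on its mean in each table, among 14952 genes tested in all 3. These values describe libraries that share experiments and dose and carry no p. Gpc6 (0.949), Ch25h (0.948) and Trerf1 (0.941) were most like Mmp16, and Lrrn2 (0.920), Mrc2 (0.919) and Pwwp2b (0.914) most like Mmp2. Mmp9 was closest to Plaur (0.829), Heyl (0.790) and Ackr3 (0.783), and Mmp14 to Ier5l (0.821), Me1 (0.751) and Cmtm7 (0.748). Of the inhibitors, Timp1 was closest to Nfic (0.900), St6galnac4 (0.900) and Steap3 (0.899), Timp2 to Fhl2 (0.880), Zbtb4 (0.879) and Dgkz (0.878), and Timp3 to Akr1b8 (0.794), Cdk6 (0.777) and Adgre5 (0.772). Mmp15 had the weakest likeness, to Ccdc69 (0.724), Uncx (0.697) and Ssbp3 (0.691). Among the members themselves, Mmp2 and Mmp16 were most alike (0.826), followed by Mmp16 and Timp1 (0.782), Mmp16 and Timp2 (0.756) and Timp1 and Timp2 (0.734), while Mmp9 gave values from -0.365 to 0.366 with the others.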

How the data were processed

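RNA was sequenced from 36 libraries of mouse NPCs as SMARTer cDNA. The submitters' processing notes name STAR, featureCounts, Salmon and DESeq2, and the builds GRCm38 and GRCh38. The signal deposited in 3 tables is a normalized count, in which the authors divided the reads of each gene by a DESeq2 size factor per library. Another 50 columns of values, and 8 tables of the authors' own comparisons (log2 fold changes and p-values), were not used. Whole reads were recovered for 100% of values within 0.02 of a whole number, and they give the depth.

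limma 3.58.1 (R 4.3.3) was fitted with a variance trend on log2(normalized count + 1), for 1 table at a time with all of its libraries. Genes under a mean of 10 were left out, which kept 17411, 16780 and 15878 genes. This scale understates the change of low genes. Benjamini-Hochberg adjustment ran over all genes tested, and a gene was called at an adjusted p under 0.05 and a log2 difference of at least 0.5. Exact permutation tests cannot go below 0.1 for 3 libraries against 3, or 0.333 for 2 against 2. edgeR 4.0.16 and DESeq2 1.42.0 on the recovered reads were alternatives, beside other pseudocounts, filters, scaling, replicate blocks and the omission of each library. The steps were tested on simulated data.

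Replicate numbers paired the libraries of the Tcf/Lef experiment. Wherever the block is not named, calls by limma come from a fit that did not use this pairing. With the block, no member count is given for the Tcf/Lef knockout in low CHIR or for its interaction with dose. Deviations from the group means correlated at 0.369, 0.249 and 0.365 between knockout and control in high CHIR, and at 0.531, 0.341 and 0.630 between control doses. In wild-type NPCs the values between low and high CHIR were 0.147, 0.0393 and 0.0946, and these libraries were taken as unpaired.

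All 8 members were tested in every comparison, and those not called are given by their values, by a range or by their count. Other genes are named if they were targeted, if they had up to 2 of the largest called differences of their list per direction, or if they were among the 3 most like a member. The members, lists and marker lists were chosen with earlier results of these data known. Promoter sequences are from RefSeq (GRCm38.p6), with an entry for 5 of 8 members. Python 3.11.15 was used for tables, promoters and figures. Values of 1 gene among the regulators of metalloproteases are not reported here, though the counts over that list hold it.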

Additional observations from a re-analysis of the deposited data

Results flagged for a closer look

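Mmp15 differed with CHIR dose in opposite directions between groups of Cas9-eGFP cells that received different guides, although it was not called in any comparison. In GFP guide cells, the ratio of its mean in high to its mean in low CHIR was 1.67 in the β-catenin experiment and 1.88 in the Tcf/Lef experiment, with every library in high CHIR above every library in low CHIR. With the Ctnnb1 guide the ratio was 0.668, and both libraries in high CHIR (35.0 and 29.9 normalized counts) lay below both in low CHIR (48.5 and 48.7). The difference between the directions in the Tcf/Lef and β-catenin experiments was not tested, since their tables were normalized separately. Within the β-catenin experiment the interaction of dose and guide was -1.25 on the log2 scale (SE 0.648, adjusted p = 0.776), which did not pass the test. The pattern was picked because the doses did not overlap in these groups. For 2 libraries against 2 an exact permutation test cannot go below 0.333, and no share of all genes under this rule is given.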

How the results depend on the processing

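Of 128 member differences, 22 were called by limma without the replicate block. Their 282 values under the alternatives all kept their direction, 238 were still called, and 10 of the 22 were called under every alternative run. Of 1510 values of differences not called, 39 became calls and 85 changed sign. TMM rescaling moved the median of all genes by at most 0.03 on the log2 scale.

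A fit of the compared groups alone gave 1 member rather than 3 for the high dose in wild-type NPCs, 2 rather than 1 for no against low CHIR, 0 rather than 1 for Cas9 removal in low CHIR, 5 rather than 2 for Cas9 removal in high CHIR and 2 rather than 4 for dose in Cre-neg cells. It ended 7 calls, of Mmp14 and Mmp16 in wild-type NPCs, of Mmp16 and Timp1 in Cre-neg cells, of Mmp2 for Cre removal in high CHIR and for dose with the GFP guide of the Tcf/Lef experiment, and of Mmp9 for Cas9 removal in low CHIR. Cas9 removal in low CHIR also gave 0 with a pseudocount of 0.5 and with edgeR. DESeq2 gave 1 rather than 0 for Cre removal in low CHIR, 4 rather than 2 for Cas9 removal in high CHIR, 3 rather than 1 for the Tcf/Lef knockout in high CHIR, 4 rather than 2 for dose with the GFP guide of the β-catenin experiment, 2 rather than 0 for the Cre interaction and 1 rather than 0 for the Ctnnb1 guide interaction. The cause was not tested. Calls over all genes moved under the alternatives as well, over the ranges given at the end. The members' counts were not weighed against them setting by setting.

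With the replicate block, the count was 1 for Cre removal in low CHIR, 4 for Cas9 removal in high CHIR, 5 for the Tcf/Lef knockout in high CHIR, 5 for dose with the GFP guide of the β-catenin experiment and 3 for the Cre interaction. The members so called were Timp1, Mmp16 and Timp2 for the Cre interaction, and Mmp2 and Timp1 in addition for Cas9 removal in high CHIR. In the same order of comparisons the block called 513, 2133, 1181, 2562 and 526 of all genes. Without it the calls were 55, 854, 404, 1260 and 167. Deviations of same-numbered libraries correlated at 0.334 to 0.518 in the Cre and 0.116 to 0.491 in the Cas9 β-catenin experiment. With 2 replicates and no label that ties a number to a batch, these numbers were not taken as pairing, though the data hint at it, and neither were those of the wild-type NPCs.

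Without 1 library, the counts ranged from 1 to 3 for the high dose in wild-type NPCs, 0 to 1 for Cas9 removal in low CHIR, 0 to 2 for Cas9 removal and 0 to 3 for the Tcf/Lef knockout in high CHIR, 2 to 3 for dose in Cre-neg cells, 2 to 5 with the GFP guide of the Tcf/Lef experiment, and 0 to 1 for both β-catenin interactions. A group left with 1 library is assumed to vary like the others. For the Tcf/Lef knockout in high CHIR the count was 0 without control replicate 2 or knockout replicate 1 or 3.

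Counts over all genes also moved. Over alternatives other than the omission of a library they were 499 to 1788 (865 as reported) for no against low CHIR, 4 to 513 (55) for Cre and 0 to 30 (9) for Cas9 removal in low CHIR, 624 to 2639 (1452) for Cre and 631 to 2133 (854) for Cas9 removal in high CHIR, 0 to 24 (1) and 321 to 1181 (404) for the Tcf/Lef knockout in low and high CHIR, 552 to 2661 (1350) in Cre-neg cells, 955 to 2562 (1260) and 1568 to 3321 (2372) for dose with the GFP guides of the β-catenin and Tcf/Lef experiments, 49 to 526 (167), 82 to 235 (87) and 18 to 158 (20) for the interactions by Cre, Ctnnb1 guide and Tcf/Lef knockout, and 0 to 25 (0) for Cre against Cas9 in high CHIR. Without 1 library they were 995 to 2207 for high against low CHIR (1808 as reported), 113 to 1032 for no against low CHIR, 18 to 303 and 0 to 1 for Cre and Cas9 removal in low CHIR, 838 to 972 and 204 to 421 in high CHIR, 0 to 4 and 157 to 480 for the Tcf/Lef knockout in low and high CHIR, 776 to 1724 in Cre-neg cells, 504 to 666 and 1545 to 3112 with the GFP guides, and 95 to 165, 29 to 61 and 4 to 50 for the interactions. Mmp9 had as few as 1 read in a library.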
